A study of Mus musculus with 4 samples.

Results

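Open chromatin around 10 genes that identify immune cells was examined in keratinocytes sorted from inflamed mouse skin. The genes were Ptprc for leukocytes in general, Spi1 for myeloid and B cells, Cd207 and Cd74 for Langerhans cells, Csf1r, Itgax and Itgam for myeloid cells, and Cd3e, Cd3g and Lck for T cells. They are a listed set, out of 21938 protein-coding genes of the GENCODE annotation. A window was drawn over each gene body and 25 kb on each side, and ATAC-seq regions that overlapped a window were kept. This gave 35 of the 82641 regions in the atlas, which merges the peaks of all 4 libraries wherever they overlap by at least 1 bp. One of the 35 lay in the windows of both Itgam and Itgax. All coordinates are on mm10.

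ATAC-seq marks open chromatin through the adapters that the Tn5 transposase inserts there. Both groups had received Aldara cream with 5% imiquimod on the skin for 8 days, and epidermal cells that were EpCam+ and high for CD49f were then sorted. The 2 WT libraries carry the genotype label Wild Type. The 2 Mapk8-KO libraries came from mice in which, per the methods, floxed Mapk8, the gene of the kinase JNK1, was deleted by a Cre recombinase under the keratin 14 promoter, so the gene is left intact in cells that never expressed that promoter. The mice were adult females on a C57BL/6 background, and littermates served as controls. The question addressed was how far immune cells show in each library. The study describes the samples of a group as independent, but the labels do not say whether they came from separate animals, so p-values measure only the spread between these libraries.

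The 10 genes cover the main immune cells of skin. Ptprc encodes CD45, which all leukocytes carry, and Spi1 encodes PU.1, a transcription factor of myeloid and B cells. Langerhans cells are the antigen-presenting cells of the epidermis. They carry EpCam on their surface as keratinocytes do, and also CD45, langerin (the product of Cd207) and MHC class II molecules, which the invariant chain (the product of Cd74) escorts. Mouse epidermis also holds resident T cells with a γδ receptor, which use the CD3 chains and the kinase Lck to signal. Antibodies to CD45, CD31 and CD140a, all on one dye, were part of the sorting stain, so the product of Ptprc was itself measured in the sort.

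The lists held 49856 to 69927 peaks per library. Strength is given as the summit pileup, the number of fragments over the highest point of a peak, and values for 4 libraries always follow the order WT 1, WT 2, Mapk8-KO 1, Mapk8-KO 2. By pileup the relative depths were 1.00, 0.694, 1.12 and 0.646, so the second library of each genotype was the shallower one. The labelled cell type was checked on 10 keratinocyte genes. All 4 libraries had a peak no farther than 2 kb from a transcription start site (TSS) for 9 of them, among them Trp63, Epcam and Itga6. Krt5 had one in all but Mapk8-KO 2. Over all coding genes, 55.2% had such a peak in all 4 libraries. Of the 5 keratinocyte genes with promoters poor in CpG dinucleotides, 4 had one in all 4, beside 17.7% of such coding genes. Within 500 bp of a TSS, 7 of the 10 had a peak in all 4 libraries.

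No member of the immune set had an open promoter in all 4 libraries. Across all TSSs of the 10 genes, no peak of any library covered a TSS or came within 500 bp of one. Within 2 kb, the single gene with a peak was Lck, in WT 1 and Mapk8-KO 1. This makes 1 of 10 genes with a promoter peak in at least 1 library, whereas 64.7% of all coding genes had one, and 55.2% had one in all 4 libraries. A peak within 500 bp in at least 1 library was found for 60.7% of coding genes. Promoters rich in CpG dinucleotides are open in most cell types, and each of the 10 genes has a CpG-poor promoter, with an observed to expected CpG ratio of at most 0.347 (Ptprc) and as low as 0.121 (Cd207). Among the 9214 coding genes with CpG-poor promoters (a ratio under 0.5), 27.6% had a peak within 2 kb in at least 1 library, 17.7% had one in all 4, and 20.3% had one within 500 bp in at least 1 library. The count of 1 in 10 was below the share of all coding genes. Beside the CpG-poor share, a list of 10 is too short to set it apart. Within 5 kb 3 of the 10 genes had a peak, a distance at which the share of coding genes was not computed. With bulk libraries, fewer cells of a type and less open chromatin per cell cannot be told apart.

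**Figure D1:**
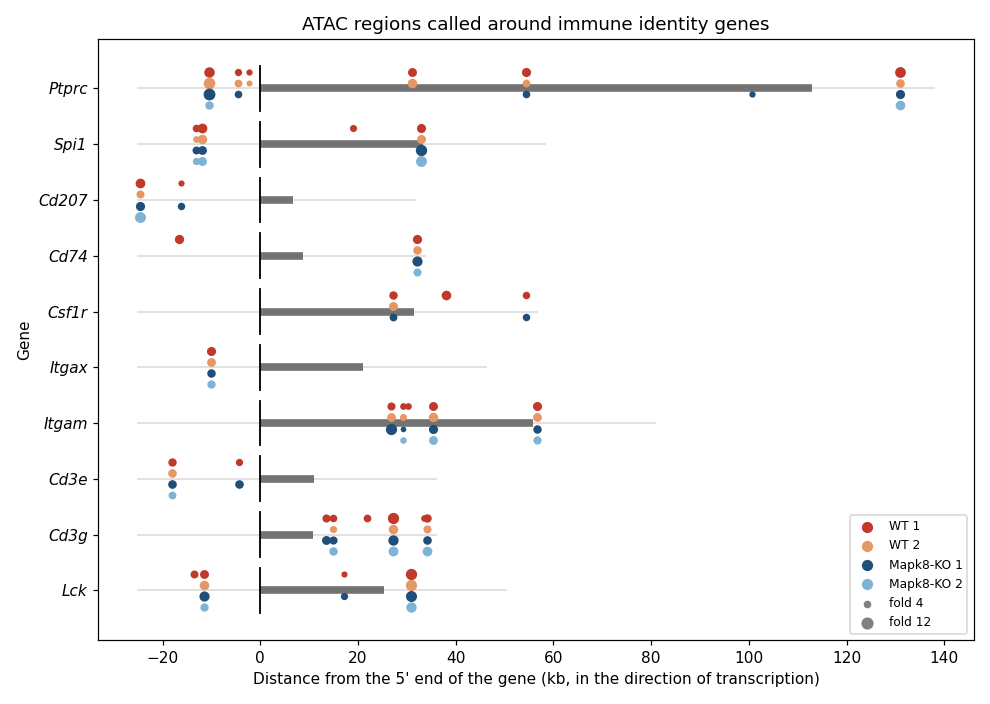
ATAC regions called in the windows of the 10 genes, plotted by the distance of the region's middle from the 5′ end of the gene in kb, with 1 row per gene, the gene body in dark grey and the window in light grey. Each point is a library in which the region was called, coloured by library and sized by fold enrichment, and no point lies on the 5′ end of any gene.

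The stretch without any called region around the 5′ end of each gene ran from 28.2 kb at Lck to 121 kb at Cd207. It was 103 kb at Itgax, 59.3 kb at Itgam, 59.0 kb at Csf1r, 48.2 kb at Cd74, 33.3 kb at Ptprc and 30.4 kb at Spi1. Cd3e and Cd3g share one such stretch of 46.8 kb, chr9:44967064-45013867, which spans both genes. Over all coding genes, 51.2% of 5′ ends lay inside a region, so the median stretch was 0 kb. Among coding genes with CpG-poor promoters 15.3% did, and the median was 63.7 kb. Of the 10 genes, 8 had a shorter stretch than this CpG-poor median. The windows as a whole were not empty either. They held between 1.41 regions per 100 kb at Itgax and 9.86 at Cd3g, with a median of 3.99. The median was 4.96 over all coding genes, 2.53 over those with CpG-poor promoters and 10.5 over the 10 keratinocyte genes.

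Other immune genes were read in the same way from lists of markers. Of 10 further leukocyte genes, 4 had a promoter peak in at least 1 library and 2 in all 4, namely Ikzf1 and Lcp1. Of 16 further genes of antigen-presenting and myeloid cells, 6 had one in at least 1 library and 5 in all 4. These 5 were H2-Ab1 and H2-Eb1, which encode MHC class II chains, the transcription factor genes Irf8 and Zbtb46, and Cd68, a lysosomal protein of macrophages. Ciita, the master regulator of MHC class II genes, had none. Of 10 further T cell genes, 2 had a promoter peak, each in all 4 libraries, among them the transcription factor gene Tcf7. Cd3d, Cd247 and Zap70, which act in T cell receptor signalling, had none. Of 6 B cell genes, 1 had one in at least 1 library and 0 in all 4. Ikzf1, Irf8, Zbtb46 and Tcf7 have CpG-rich promoters, and the Lcp1 peak is also near a TSS of its neighbour Lrrc63. Among CpG-poor promoters, 3 of 9 leukocyte, 4 of 13 antigen-presenting and myeloid, and 1 of 9 T cell genes had a peak in at least 1 library. Beside the background of 27.6%, these counts do not set the lists apart.

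Summit pileups follow for the 5 antigen-presenting and myeloid promoters called in all 4 libraries. H2-Ab1 had 20, 12, 27 and 19 fragments. H2-Eb1 had 30, 23, 24 and 17. Irf8 had 41, 28, 37 and 23. Zbtb46 had 35, 28, 45 and 37. Cd68 had 41, 27, 34 and 20. These 5 promoters were thus called in both genotypes. H2-Aa, also a class II gene, was called in WT 1 at 29 and Mapk8-KO 1 at 26 only. By fold enrichment, Irf8 stood at percentiles 87.3, 76.6, 79.3 and 70.2 of the lists. The median over the 10 keratinocyte genes was 48.5, 30.0, 60.5 and 39.0, where Krt5 counts only in the libraries that called it. These genes differed widely, with Krt15 at 18, 13, 26 and 14 and Dsp at 71, 56, 92 and 68.

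Marker lists of other cell types were read in the same measure. Endothelial cells and fibroblasts carry CD31 and CD140a, which were on the same dye as CD45, and genes of tissues other than skin serve as a background. Promoter peaks in at least 1 library were found for 4 of 5 melanocyte genes, 5 of 6 endothelial genes, 2 of 6 fibroblast genes and 2 of 10 genes of tissues other than skin. In all 4 libraries the counts were 4, 3, 2 and 0. Among the CpG-poor members, 3 of 4, 4 of 5, 1 of 5 and 1 of 8 had one in at least 1 library, beside the 27.6% of all CpG-poor coding genes. The peaks of the melanocyte gene Pmel and the endothelial gene Pecam1 also lay near TSSs of their coding neighbours Cdk2 and Milr1. Within 500 bp of a TSS the counts in at least 1 library fell to 1, 3, 1 and 1, and that of the keratinocyte genes stayed at 10 of 10. The part of other cells in any of these peaks was not tested.

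**Figure D2:**
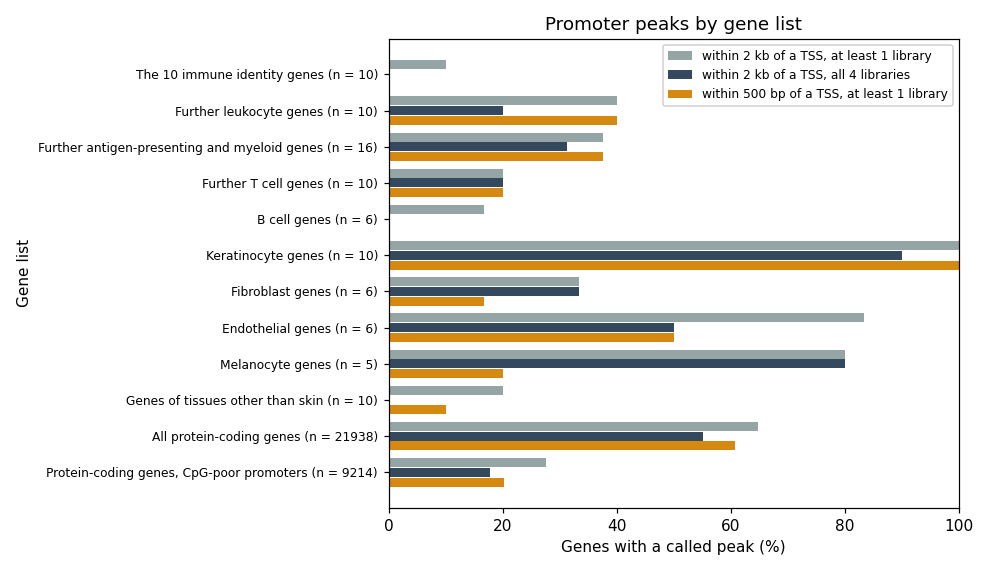
Share of genes with a called peak (%, horizontal axis) near a TSS for each list of markers and for all coding genes, with 3 bars per list for a peak within 2 kb in at least 1 library, within 2 kb in all 4 libraries, and within 500 bp in at least 1 library. The 10 immune identity genes have 1 gene in the first bar and none in the others, while the keratinocyte genes reach 10, 9 and 10 of 10.

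The Ptprc gene occupies chromosome 1 from 138062861 to 138175708 (minus strand), with 7 regions in its window. It was the locus with the most regions, although its window is also the longest, at 163 kb. The region with the highest pileup in all libraries but Mapk8-KO 2 lay 10.5 kb upstream of the gene, at chr1:138185974-138186435. It is near the TSS of the pseudogene Gm18667. Each library called it, with pileups of 46, 52, 71 and 19 fragments. In raw pileup, not scaled for depth, the Mapk8-KO libraries thus lay on either side of both WT libraries. A region beyond the 3′ end, at chr1:138044478-138044860, had 45, 22, 36 and 29 fragments.

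The other Ptprc regions were called in some libraries only. In introns, chr1:138144416-138144759 was called in both WT libraries at 26 fragments each and in neither Mapk8-KO library. Its fold enrichment over local background was 8.62 in WT 1 and 9.70 in WT 2. These folds stood at percentiles 63.6 and 69.9 within their lists, where the percentile is the share of peaks in the same library with a lower fold. A second intronic region, chr1:138121150-138121428, had 31, 17 and 21 fragments in WT 1, WT 2 and Mapk8-KO 1. The last one, chr1:138074901-138075191, was called in Mapk8-KO 1 alone, at 14. Upstream, a narrow region 2717 bp from the nearest Ptprc TSS, chr1:138178023-138178199, was called in both WT libraries at 13 and 9 fragments. A wider one, chr1:138180108-138180609, had 19, 16 and 22 fragments in WT 1, WT 2 and Mapk8-KO 1. None of these 5 was called in Mapk8-KO 2.

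Up to 100 bp on either side of a region's strongest summit, both strands were read for motifs of transcription factors. They were AP-1 (TGACTCA or TGAGTCA), PU.1 (GAGGAAGT), RUNX (TGTGGTT) and, for comparison, ETS (CCGGAAG). AP-1 dimers of Fos and Jun proteins are the main nuclear targets of JNK signalling and are abundant in keratinocytes, while PU.1 and RUNX factors act in blood cells, RUNX factors also in skin. The PU.1 motif occurred in 2 of the 35 regions, one upstream of Ptprc and one in an intron of Itgam, and both also held an AP-1 motif. The RUNX motif was found beside the summit of the narrow region upstream of Ptprc, where it straddles the region's edge and starts 2 bases outside. The 201 bases centred on the summit of these 3 regions are printed below from the forward strand of the RefSeq copy of GRCm38, the assembly that mm10 denotes, because they are the sites where letters recognised by blood cell factors were found. Capitals mark the motifs.

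Ptprc upstream, chr1:138180169-138180369, PU.1 and AP-1: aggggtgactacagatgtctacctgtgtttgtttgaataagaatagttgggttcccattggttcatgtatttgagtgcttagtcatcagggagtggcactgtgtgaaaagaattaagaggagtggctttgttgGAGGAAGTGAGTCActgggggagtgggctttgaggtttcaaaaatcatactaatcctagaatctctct
Ptprc upstream, chr1:138177952-138178152, RUNX: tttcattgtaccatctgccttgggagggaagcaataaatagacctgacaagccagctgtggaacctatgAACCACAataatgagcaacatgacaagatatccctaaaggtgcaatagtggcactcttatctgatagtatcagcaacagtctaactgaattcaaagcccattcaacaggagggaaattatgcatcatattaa
Itgam intron, chr7:128089234-128089434, PU.1 and AP-1: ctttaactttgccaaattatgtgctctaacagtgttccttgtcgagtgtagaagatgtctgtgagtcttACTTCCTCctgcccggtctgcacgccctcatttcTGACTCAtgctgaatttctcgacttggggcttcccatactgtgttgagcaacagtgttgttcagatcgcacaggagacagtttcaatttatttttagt

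Repeat masking covers 57.7%, 30.8% and 10.4% of the 3 sequences. In the first the motifs overlap by 1 base, since the PU.1 motif ends at 138180309 and the AP-1 motif starts there. In the Itgam sequence the PU.1 motif is on the reverse strand, centred 27 bp before the summit, and the AP-1 motif is centred 6 bp after it. Over the whole atlas, read around the summits in the same way, the PU.1 motif was found in 1.61% of regions and both motifs together in 0.399%. AP-1 motifs occurred in 7 of the 35 regions and in 23.8% of the atlas. RUNX motifs occurred in 1 of the 35 and in 4.00% of the atlas, and ETS motifs in 2 of the 35 and in 3.13%. With 35 regions, each such share rests on a few regions, and a match of letters does not show that a factor was bound.

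Spi1, on chromosome 2 from 91082390 to 91115756 (plus strand), had 4 regions in its window. The highest pileup of all 10 windows in each library was at a neighbour. At the promoter of Slc39a13, a zinc transporter gene, chr2:91070090-91070823 had 87, 58, 86 and 54 fragments, and chr2:91068888-91069554 had 53, 29, 69 and 35. Inside Spi1, an intronic region 5134 bp from its TSS, chr2:91101230-91101673, was called in WT 1 alone, at 16 fragments. At the 3′ end, chr2:91115078-91115515 overlaps an exon of Spi1 and lies 2629 bp from the TSS of Mybpc3, a gene of heart muscle. It had 27, 21, 48 and 32 fragments, with both Mapk8-KO libraries above both WT libraries in raw pileup.

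The 2 genes of Langerhans cells had no region inside the gene body. Cd207 spans 83671215 to 83677857 of chromosome 6 (minus strand). Its nearest region, chr6:83693968-83694163, lay 16111 bp from its TSS and was called at 12 fragments in WT 1 and 20 in Mapk8-KO 1. At the edge of the window, near the TSS of the noncoding gene Vax2os, chr6:83702186-83702707 was called in every library, at 31, 17, 31 and 32 fragments. Cd74 spans 60803848 to 60812652 of chromosome 18 (plus strand). Upstream of it a region at 16381 bp, chr18:60787101-60787467, was called in WT 1 alone, at 28 fragments. Downstream, chr18:60835677-60836104 was called in all 4, at 31, 19, 38 and 19. No region of either gene was called in both libraries of 1 genotype only.

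Among the myeloid genes, Csf1r encodes the receptor for macrophage colony-stimulating factor, on chromosome 18 from 61100598 to 61132149. It was the single gene of the set with no region called in all 4 libraries. A region over an exon in its 3′ part, chr18:61127596-61127950, had 23, 21 and 22 fragments in WT 1, WT 2 and Mapk8-KO 1, and further downstream were a region called in WT 1 alone at 30 fragments and one called at 18 in WT 1 and 20 in Mapk8-KO 1. Mapk8-KO 2 had no call in this window. Itgax encodes the integrin CD11c of dendritic cells, on chromosome 7 from 128129547 to 128150657. Its single region, chr7:128118911-128119815, lies just beyond the 3′ end of Itgam and held an AP-1 motif. It had 36, 31, 33 and 22 fragments.

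Itgam encodes the integrin CD11b, on chromosome 7 from 128062640 to 128118491, and was the gene with the most regions inside its body. All 4 of these lay in introns, between 26.7 and 35.4 kb from the 5′ end. The region with PU.1 and AP-1 motifs, chr7:128089183-128089516, had 24 and 23 fragments in the WT libraries and 51 in Mapk8-KO 1, but had no call in Mapk8-KO 2. Its percentile was 48.5 and 57.9 in the WT libraries and 91.6 in Mapk8-KO 1. The widest region, chr7:128097494-128098526, held an AP-1 motif and was called in all 4, at 29, 25, 35 and 21. A weak one, chr7:128091600-128091930, was also called in all 4, at 16, 14, 12 and 11, and another was called in WT 1 alone at 21.

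The T cell genes Cd3e and Cd3g encode the ε and γ chains of CD3, on chromosome 9 from 44998740 to 45009627 and from 44969572 to 44980431. Neither had a region inside its body. Closest to Cd3e, chr9:45013868-45014136 lay 4255 bp from the TSS, held an AP-1 motif, and was called at 17 fragments in WT 1 and 27 in Mapk8-KO 1. Another, chr9:45027416-45028108, was called in all 4 at 26, 21, 28 and 20. All 6 regions of the Cd3g window lay beyond its 3′ end. Of 2 at the promoter of Ube4a, a ubiquitin ligase gene, chr9:44965137-44965932 was called in all 4, at 19, 13, 25 and 20 fragments, and chr9:44966857-44967063 was called at 22 in WT 1 and 30 in Mapk8-KO 1. The highest of the 6, chr9:44952835-44953727, near the pseudogene Gm19121, had 75, 34, 59 and 34. Of the remaining 3, one was called in all libraries at 23, 17, 27 and 25, and the other two in WT 1 alone at 14 and 19.

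Lck encodes a Src family kinase that starts T cell receptor signalling and occupies 129548344 to 129573641 of chromosome 4 (minus strand). Its region chr4:129556300-129556685 overlaps an exon, 1687 bp from the nearest of 3 annotated TSSs of Lck and 1126 bp from that of the microRNA gene Mir8119. It is the only region of the 35 within 2 kb of a TSS of a listed gene. It had 12 fragments in WT 1 and 19 in Mapk8-KO 1, at percentiles 10.6 and 33.4 of their lists, and was not called in WT 2 or Mapk8-KO 2, the shallower libraries. It was lost when each list was shortened to the 49856 strongest peaks. Upstream of Lck, chr4:129584904-129585456 was called in all 4 at 29, 24, 38 and 18, and beyond it another region was called in WT 1 alone at 23. The highest pileup of this window was at the promoter of the neighbour Hdac1, a histone deacetylase gene, where chr4:129542575-129543016 had 50, 41, 45 and 31 fragments.

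**Figure D3:**
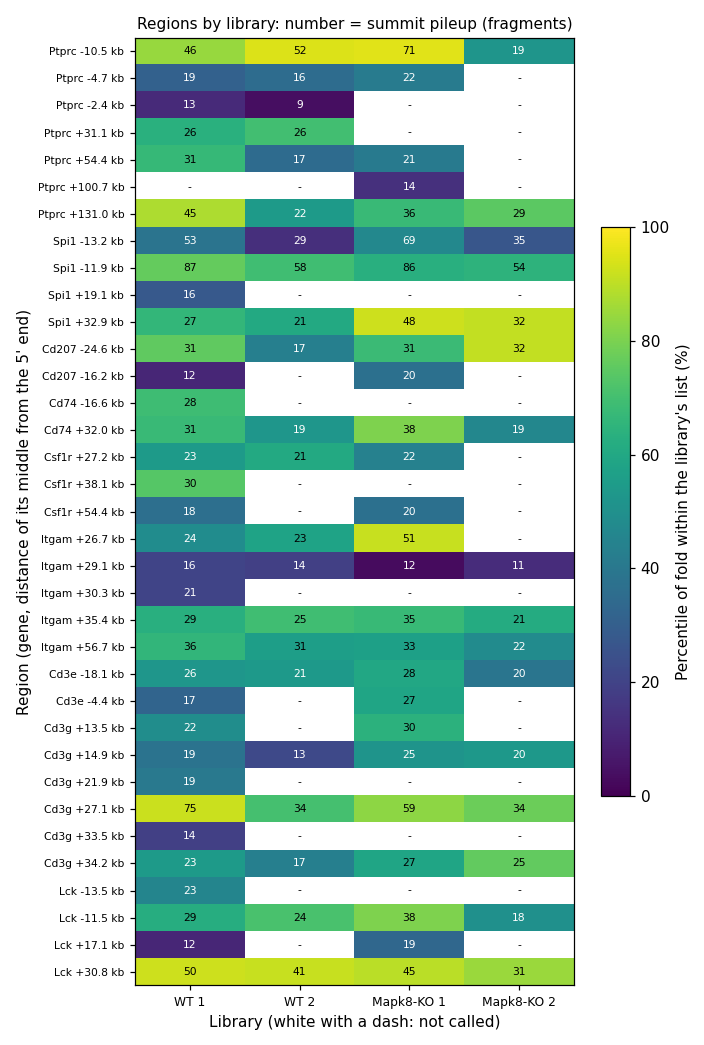
The 35 regions by library, with rows ordered by gene and by the distance of the region's middle from the 5′ end in kb. Colour gives the percentile of fold enrichment within the library's own list, the number is the summit pileup in fragments, and white marks regions not called, which are fewest in WT 1 (1 of 35).

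By position, 1 of the 35 regions was the one near an Lck TSS, 5 lay at promoters of coding neighbours, 4 near a TSS of a noncoding gene or pseudogene, 10 inside the listed genes and 15 in the flanks. Calls in all 4 libraries were made at 4 of the 5 promoters of coding neighbours and at 3 of the 10 regions inside the listed genes. Of all regions away from any TSS, 36.0% in the windows and 42.3% in the atlas were called in all 4. For promoter regions alone the atlas share was not computed. The 10 regions inside the listed genes gave 9, 7, 7 and 3 calls in the 4 libraries. Those libraries called 81.8%, 61.3%, 80.9% and 53.6% of atlas regions away from any TSS. In width and base composition the 35 regions were close to the atlas, with medians of 386 and 410 bp and of 49.1 and 49.4% GC.

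The libraries differed in how many of the 35 regions they called. The counts were 34 (97.1%), 22 (62.9%), 26 (74.3%) and 16 (45.7%). Over the whole atlas the shares were 83.8%, 65.2%, 83.2% and 59.1%. WT 1 thus stood above the atlas in the windows and the other 3 below it, WT 2 by the least. Of the 8 regions called in 1 library, 7 were in WT 1 and 1 in Mapk8-KO 1, whereas WT 1 held 41.8% of such regions of the atlas and Mapk8-KO 1 held 39.0%. All 16 regions called in Mapk8-KO 2 were called in the other libraries too. Calls in all 4 libraries were thus made for 45.7% of the 35 regions (Wilson 95% interval 30.5 to 61.8%, counting error only), against 48.6% of the atlas. The cause of the WT 1 excess was not tested.

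**Figure D4:**
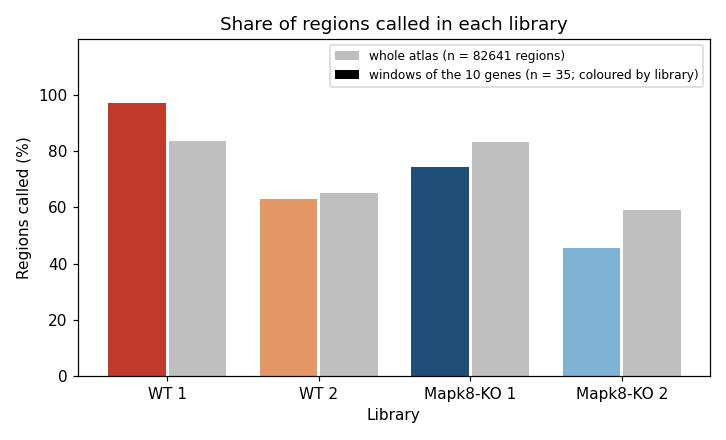
Share of regions called (%) in each library, as a coloured bar for the 35 regions in the windows of the 10 genes and a grey bar for the whole atlas of 82641 regions. The coloured bars run from 45.7% in Mapk8-KO 2 to 97.1% in WT 1.

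Regions that were called did not stand high in the lists by pileup. The median summit pileup of called regions in the windows was 25, 21.5, 30.5 and 23.5 fragments, and that of all called regions was 34.0, 28.0, 36.0 and 26.0. By fold enrichment the windows were close to the lists, with medians of 7.57, 8.16, 8.01 and 8.07 against 7.31, 7.77, 7.10 and 7.43. Their median percentiles were 53.7, 55.3, 59.4 and 57.5. Among regions called in all 4 libraries, the median percentile was 66.0, 55.3, 67.5 and 57.5 in the windows and 68.0, 60.8, 69.3 and 58.6 in the atlas. The weakest peak of each whole list had 9, 8, 10 and 8 fragments. A region that was not called can therefore still hold fragments below the calling limit.

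The genotypes were compared last. The WT libraries called 80% ± 24.2 of the 35 regions and the Mapk8-KO libraries 60% ± 20.2 (SD, n = 2 each). The difference of 20 percentage points was smaller than the spread of 22.3 between libraries of a genotype, and it was 3.57 without WT 1 and 37.1 without WT 2. Over the whole atlas, the WT libraries called 83.8% and 65.2% of regions and the Mapk8-KO libraries 83.2% and 59.1%. WT-specific regions, called by both WT libraries but by neither Mapk8-KO library, numbered 2, both at Ptprc and both described above, and 2.17% of the atlas met this definition. The reverse definition was met by 0 of the 35 and by 1.65% of the atlas. With lists of equal length 1 WT-specific region was left. Leaving out a library loosens the definition for every region of the atlas. The atlas share was not computed for that case, so such counts are not read here.

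The 16 regions called in all 4 libraries were tested within a limma fit of log2 summit pileup over the 40159 such regions of the atlas. None of the 16 passed an adjusted p of 0.05 (Benjamini-Hochberg), and 1 had an unadjusted p under 0.05. Over all regions tested, 0.608% passed (244 regions), and 4524 (11.3%) had an unadjusted p under 0.05. The log2 differences of WT minus Mapk8-KO ran from −0.74 to 0.39, with standard errors of 0.19 to 0.34. The largest in size was that of the region at the 3′ end of Spi1, at −0.74 with a standard error of 0.27 (limma, adjusted p = 0.223). The Ptprc region 10.5 kb upstream had a log2 difference of 0.39 with a standard error of 0.24 (limma, adjusted p = 0.555). Without Mapk8-KO 1 this difference became 0.92, but it then rests on a single Mapk8-KO library, the shallowest of the 4. At the Slc39a13 promoter the difference was 0.04 with a standard error of 0.19. With standard errors of this size, modest differences were not detectable.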

How the data were processed

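ATAC-seq libraries, 2 WT and 2 Mapk8-KO, were grouped and numbered by their titles. As the methods describe, the authors aligned reads to mm10 with Bowtie2 and called peaks per library with MACS2. No Tn5 shift is stated. The deposited files give each peak's start, end and summit offset, a fold enrichment (a ratio over local background), −log10 p and −log10 q values, and a score made from q. The highest deposited q value was 0.0097.

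Summit pileups were solved from the deposited fold and −log10 p, and at least 99.996% came out whole to within 0.05. Depth was taken from pileups of regions called in all 4 libraries. Promoters, 2 kb on each side, used 77200 TSSs of GENCODE M21. Where a region held several peaks of a library, the one with the highest fold gives its values. limma 3.58.1 (R 4.3.3), with a variance trend, was fitted to log2 pileup centred on each library's median. The authors' DESeq2 test needs reads per region, which are not used here. Scripts were tested on simulated data.

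The genes and marker lists were chosen with earlier results of these data known, so no list has a test. By the naming rule, each gene is given with its promoter regions, its highest-ranking region away from promoters of other genes, and any region specific to a genotype or called by limma, and genes of other lists where they depart from the rest of their list. Further regions were added after their values were seen, to account for members. Alternatives varied windows, promoter distance, q, list length, overlap, scale, block and libraries. Some genes of the marker lists are not reported here by name.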

Additional observations from a re-analysis of the deposited data

How the results depend on the processing

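Over 10 results, 73 alternatives stayed within a set margin of the main value, 24 moved beyond it and 4 reversed the sign. The margins were wide. For the genotype difference in the share called, 20 percentage points, the margin was the spread of 22.3, so 3.57 and 37.1 both stayed within it. For the percentile difference it was the spread of 7.34, so −7.27 stayed within it. A count of 26 regions in place of 35 also did. The 73 therefore do not show that the values were closely reproduced. The median-of-ratios scaling, the count of genes with a promoter peak in at least 1 library and the 500 bp distance for other lists were chosen after the data had been seen. The count of genes with a promoter peak in all 4 libraries was 0 in each alternative. In at least 1 library it was 0 within 500 bp, 0 at the TSS itself, 0 with lists of equal length, and 3 within 5 kb (Ptprc, Cd3e and Lck). No share of coding genes within 5 kb was computed to set beside the 3. By construction, the 35 regions became 19 with 10 kb windows, 11 in gene bodies alone and 61 with 50 kb. In gene bodies alone, 27.3% of the 11 regions were called in all 4 libraries and 1 region was WT-specific. Over the whole atlas the shares were 48.6% and 2.17%, and over the bodies of all genes they were not computed. WT-specific regions also numbered 1 with lists of equal length and 1 when peaks had to cover 50% of a region. The WT minus Mapk8-KO difference in median percentile, −1.89 points, was 1.57 with 10 kb windows and 0.587 with the replicate block, within the spread of 7.34. The cause was not tested.

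Leaving out each library in turn, the number of WT-specific regions lay between 2 and 9 and that of Mapk8-KO-specific ones between 0 and 1. The atlas shares under these looser definitions were not computed. No genotype difference is therefore read from these counts. The percentile difference lay between −7.27 and 3.49, and was positive without WT 2 (3.49) or Mapk8-KO 1 (3.11). The limma count over all regions was 23 without WT 1, 5 without WT 2, 1718 without Mapk8-KO 1 and 21 without Mapk8-KO 2, where the lone library of a group is assumed to vary like the others. In the windows it was 0 to 1. Over all regions limma called 0 without the variance trend (3985 at an unadjusted p under 0.05), 0 on log2 fold enrichment (2731 unadjusted), 29 with quantile normalization, 94 with median-of-ratios scaling and 386 with the replicate block. None of these 5 called a region in the windows. Deviations of same-numbered libraries had a Pearson r of 0.0392 across regions, so the numbers are not treated as pairs. WT 2 and Mapk8-KO 2 were the shallower libraries, but the part of depth in the calls was not tested, and absence from a list is not absence of open chromatin.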
